A study of Mus musculus with 71 samples.

Results

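Pax5, Ebf1, Foxo1, Pou2af1, Irf4, Irf8, Spib and Bach2 are 8 genes for transcription regulators of the B-lymphoid lineage. They were chosen by name, with earlier results of these data known. All 8 were found among the 25579 genes of the bone marrow RNA-seq files and among the 24420 gene names of the early lymphoid and thymocyte files. The study removed parts of the Pax5 protein in C57BL/6 mice and sequenced poly(A) RNA of pro-B cells sorted directly from bone marrow. For these 8 genes the RNA levels were compared between mice with an intact Pax5 gene, mice lacking 1 or more Pax5 domains and mice lacking Pax5 in blood cells, and were then followed through early T cell development in wild-type cells and in Rag2(-/-) thymocytes, which cannot rearrange antigen receptor genes. Of the 71 samples of the series, 48 carried gene expression values (25 in the first pro-B experiments, 6 in an experiment on the paired domain and 17 of lymphoid progenitors and thymocytes), and the chromatin samples were not analysed here.

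B cell development starts when a lymphoid progenitor activates a small network of transcription factors. Ebf1 and Foxo1 act at specification, the step at which a progenitor first takes on B-lineage gene expression, and both help to activate Pax5. Pax5 then commits the cell by activating B cell genes and repressing genes of other lineages. Pou2af1 (also called OBF1) is a co-activator that joins the octamer-binding proteins. Irf4 and Irf8 are related interferon regulatory factors that bind many composite elements together with Ets-family proteins, and Spib is such an Ets-family protein. Bach2 is a BTB-domain repressor that holds back plasma cell and myeloid genes in B cells.

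Each Pax5 allele removed a different part of the protein. The paired domain at the N terminus binds DNA. The octapeptide (OP) recruits Groucho-type corepressors, and the partial homeodomain (HD) is a binding surface for other proteins. In the C-terminal regulatory domain, earlier transfection assays in cell lines found a transactivation domain, which lies in the CRD1 segment. They also found a neighbouring inhibitory region, most of which lies in the CRD2 segment. The paper reports that each segment contributes to both activation and repression, and traces the earlier division to the design of those assays as the likely source. The segments were deleted singly and together. In the allele names of the labels, D stands for a deletion, so that Pax5(DOP/DOP), Pax5(DHD/DHD) and Pax5(DOP,HD/DOP,HD) pro-B cells lacked the octapeptide, the partial homeodomain or both on each allele. Pax5(DCRD2/DCRD2), Pax5(DCRD1/DCRD1) and Pax5(DCRD1,2/DCRD1,2) cells carried the C-terminal deletions on each allele. Pax5(DCRD2/-), Pax5(DCRD1/-) and Pax5(DCRD1,2/-) cells carried them opposite a Pax5 null allele. No group with 1 intact and 1 null allele was among these samples, so a hemizygous deletion and the loss of a Pax5 copy cannot be told apart. Vav-Cre Pax5(fl/fl) progenitors had both floxed Pax5 alleles deleted by a Cre that is active in all blood lineages. In the experiment on the paired domain, Vav-Cre Pax5(Prd/fl) progenitors kept a single allele that encodes little more than the paired domain, and Vav-Cre Pax5(fl/fl) progenitors and Vav-Cre Pax5(fl/+) pro-B cells were sequenced beside them, with Vav-Cre in all of the groups. The gate for pro-B cells took Kit+B220+ cells of the B lineage without CD2, IgM or IgD on their surface. Pro-B cells with the CRD1,2 deletion and the Pax5-deleted progenitors of the first experiments came through another gate. It took lineage-negative cells that are B220+, Ly6D+ and high in Kit. Gate and genotype cannot be told apart where these cells are compared with Pax5(+/+) or other cells from the pro-B gate. The labels of the Prd/fl and fl/fl progenitors of the paired-domain experiment name an alternative gating, which those of the first experiments do not. Ages were not given in the labels.

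The HD and C-terminal deletions were made with guide RNAs, and their target sites are shown because they place the deletions within Pax5. The sites are written 5′ to 3′ on the coding strand of Pax5, which is the minus strand of chromosome 4, in build GRCm38. Capitals mark the protospacer-adjacent motif, NGG, or its complement CCN where the guide matched the opposite strand. Each site had 1 match on the chromosome.
sgRNA-1: CCGgaagcagatgcggggagacc
sgRNA-2: CCAcggaacccatcaagccagaa
sgRNA-3: agaaccagtcagaagcaacgGGG
sgRNA-4: CCCagtgattgattaatgatgtc
sgRNA-5: CCCcatactattacagccctgca
The HD sites were both in exon 6 (sgRNA-1 at chr4:44645646-44645668 and sgRNA-2 at chr4:44645551-44645573). The CRD1 sites lay in introns on either side of exons 8 and 9, counted along the RefSeq transcript NM_008782.3 (sgRNA-3 in intron 7 at chr4:44570465-44570487 and sgRNA-4 in intron 9 at chr4:44537066-44537088). Their cuts lay 33388 bases apart. The CRD2 site was in exon 10 (sgRNA-5 at chr4:44531557-44531579), and the OP allele was made by gene targeting in embryonic stem cells. Exons 8 and 9 make up 189 nucleotides, or 2.299% of the 8220-nucleotide Pax5 transcript, whereas the last exon makes up 83.15%. A Pax5 value summed over the gene can therefore still count transcripts of a deleted allele and does not check the deletion itself. The files give values per gene and not per exon.

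Some differences between libraries are given before the results, because the genotypes do not set them. The libraries were sequenced as 50- or 100-nucleotide reads, and in all 8 of the 8 genes each 50-nucleotide Pax5(+/+) library (replicates 1, 2 and 5) was above both 100-nucleotide ones (replicates 3 and 4), as was the case for 24.9% of the 12864 genes compared, while 8.33% had the opposite order. Read length was therefore a term in the model of the C-terminal deletions, and each mutant is described beside the Pax5(+/+) libraries of its own read length. Libraries also differed in the summed level of 13 granulocyte and macrophage markers, which ranged from 809 to 6957 TPM (the share of a library's transcripts that come from a gene, scaled by the authors) in Pax5(+/+), with replicate 4 the highest, and reached 16570 TPM in Pax5(DCRD2/-) replicate 1. Recovered read totals were between 10018678 and 43784791 per bone marrow library. The summed level of 10 pro-B sort and identity markers was 13910 to 18030 TPM in Pax5(+/+) pro-B cells and 10770 to 12000 TPM in Vav-Cre Pax5(fl/fl) progenitors. The labels do not say that replicates came from separate mice, so the p-values measure the spread between samples, which may in part be technical.

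In Pax5(+/+) pro-B cells all 8 genes were well expressed. Pou2af1 was the highest at 1013 ± 186 TPM (mean ± SD, n = 5), and Spib followed at 622 ± 136 TPM. Pax5 was at 442 ± 84.8 TPM and Ebf1 at 422 ± 142 TPM, which do not differ beyond their spread. Irf8 (209 ± 24.5 TPM) and Foxo1 (205 ± 45.6 TPM) were likewise close to each other. Irf4 was at 157 ± 41.6 TPM and Bach2 at 130 ± 54.5 TPM, again with overlapping spreads. These values pool both read lengths, and in the 100-nucleotide libraries alone Irf4 (112 and 137 TPM) lay above Bach2 (68.2 and 81.5 TPM). TPM is divided by transcript length, so these levels can be compared between genes. In the RefSeq annotation of GRCm38, Pax5 lies at chr4:44524748-44710694 (minus strand) and Bach2 on the same chromosome at chr4:32238413-32586109. Ebf1 lies at chr11:44618100-45008096, Foxo1 at chr3:52268337-52350109, Pou2af1 at chr9:51213690-51240079, Irf4 at chr13:30749233-30766981, Irf8 at chr8:120736358-120756694 and Spib at chr7:44525995-44532087 (minus strand), so no 2 of the genes are neighbours.

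**Figure D1:**
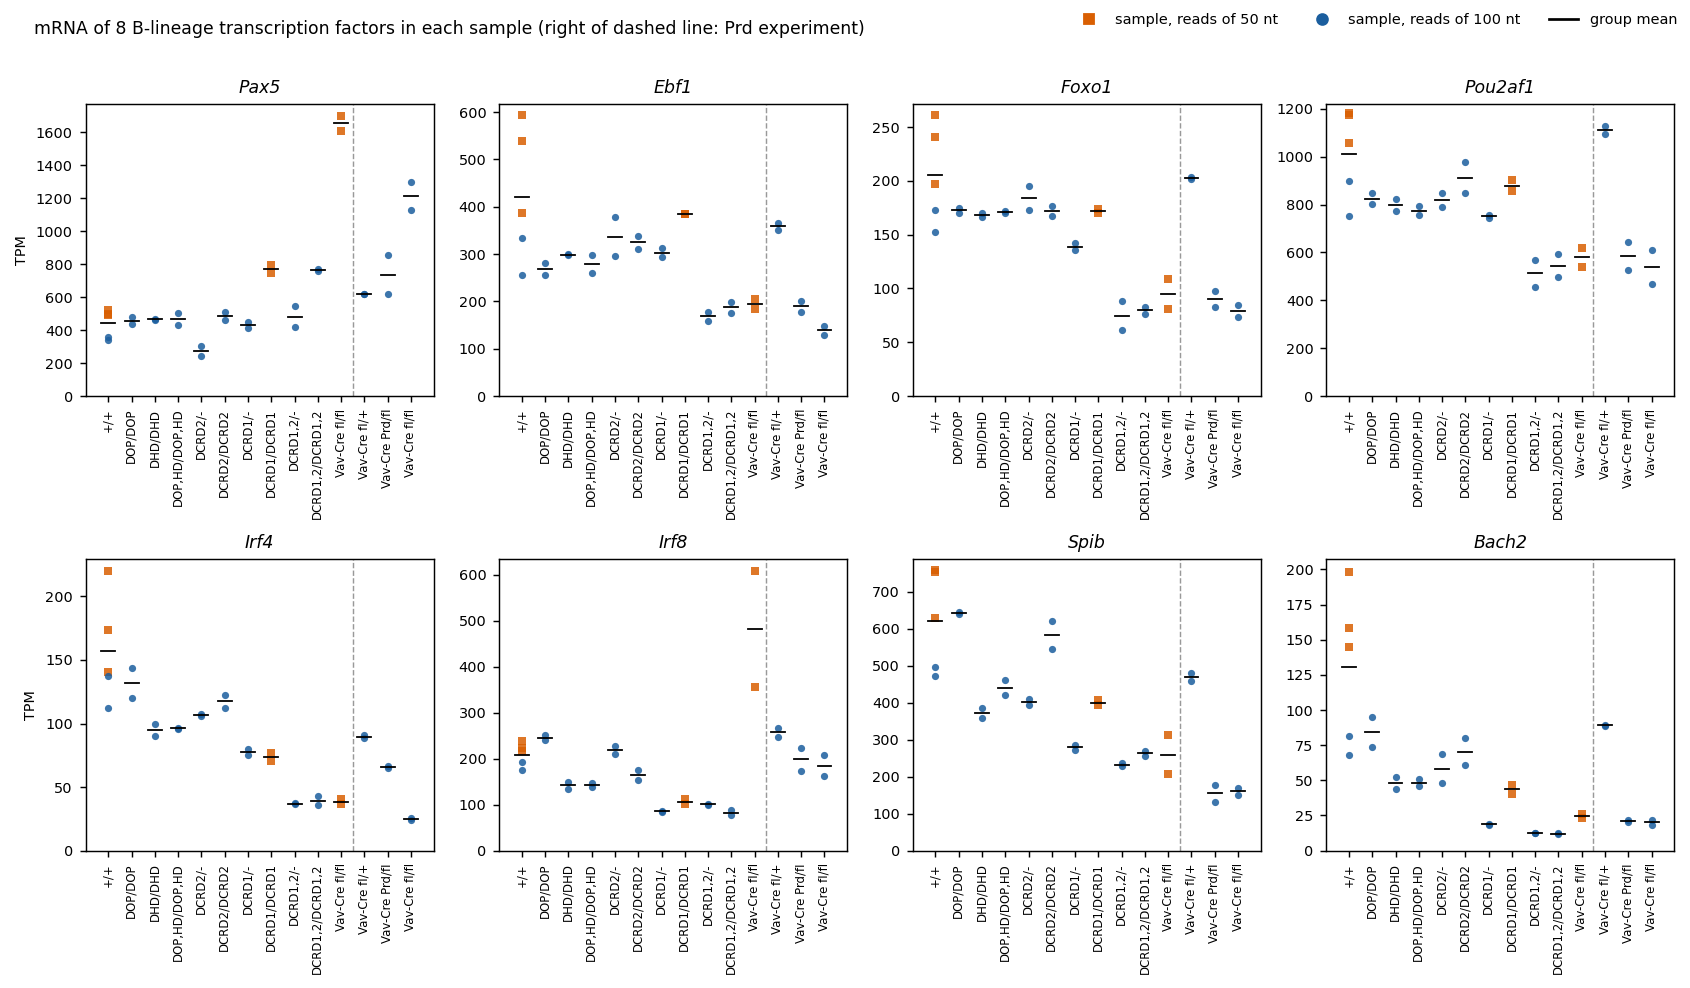
RNA level (TPM, linear axis from 0) of the 8 genes in each bone marrow sample, by Pax5 genotype. Orange squares are libraries of 50-nucleotide reads, blue circles those of 100-nucleotide reads, black bars the group means, and the groups right of the dashed line belong to the paired-domain experiment with its own control. Bach2 reads 11.6 to 12.4 TPM in the 4 libraries with the CRD1,2 deletion and 68.2 to 198 TPM in the 5 Pax5(+/+) libraries, while Pax5 is highest in the Vav-Cre Pax5(fl/fl) progenitors of the first experiments, at 1609 and 1697 TPM.

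The comparison of the OP and HD deletions asked what the central part of Pax5 contributes. All of these libraries had 100-nucleotide reads and were set against Pax5(+/+) replicates 3 and 4. None of the 8 genes was called (limma on log2(TPM + 0.1), Benjamini-Hochberg adjusted p below 0.05 over all genes tested) in Pax5(DOP/DOP), Pax5(DHD/DHD) or Pax5(DOP,HD/DOP,HD) against Pax5(+/+), where 0.485%, 0.639% and 1.22% of all tested genes were called. At an unadjusted p below 0.05 the counts were 3, 5 and 4 of 8 genes. On recovered reads edgeR called 0, 1 and 1, and DESeq2 called 3, 5 and 2 of the 8 genes. The 2 single deletions, however, lay on opposite sides of Pax5(+/+) for Irf8 and Spib. Set directly against each other, Pax5(DOP/DOP) was higher than Pax5(DHD/DHD) for 3 of 8 genes, namely Irf8, Spib and Bach2, where 2.13% of all genes were called higher and 3.96% in either direction.

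Irf8 was at 240.1 and 251 TPM in Pax5(DOP/DOP), 135 and 149 TPM in Pax5(DHD/DHD), and 192 and 176 TPM in the 2 Pax5(+/+) libraries of this comparison. The 3 groups did not overlap, with the octapeptide deletion at the top and the homeodomain deletion at the bottom. Irf8 differed between the 2 deletions by a log2 fold change of 0.79 (SE 0.094, adjusted p = 0.00618). Spib, the Ets-family factor, read 646 and 639 TPM without the octapeptide, 385 and 359 TPM without the homeodomain, and 496 and 472 TPM in Pax5(+/+). Its order was the same as that of Irf8, again with no overlap, and the difference was 0.79 on the log2 scale (SE 0.085, adjusted p = 0.00427). Bach2 was at 95.04 and 73.8 TPM, against 52.1 and 43.7 TPM, with Pax5(+/+) at 68.2 and 81.5 TPM. Here only the homeodomain deletion stood clear of Pax5(+/+), and the 2 deletions differed by 0.81 (SE 0.16, adjusted p = 0.0379). Irf4 leaned the same way, at 144 and 120.1 TPM against 99.4 and 90.03 TPM, but the difference of 0.47 (95% confidence interval 0.17 to 0.78) was not called (adjusted p = 0.0968). These calls were not firm. Leaving out Pax5(DHD/DHD) replicate 1 or either Pax5(DOP/DOP) library ended the Irf8 call (adjusted p up to 0.097), leaving out any of those 3 libraries or Pax5(DHD/DHD) replicate 2 ended that of Spib (up to 0.0686), and the Bach2 call ended without any library other than Pax5(+/+) replicate 4 (up to 0.245). The granulocyte and macrophage marker sum was 7072 and 7441 TPM in the Pax5(DOP/DOP) libraries and 544 and 1806 TPM in the Pax5(DHD/DHD) libraries, with 1 of 13 markers called higher and none at 0, and the part of these cells in the differences was not tested. In bulk RNA, a lower share of a cell type and less RNA per cell cannot be told apart.

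The double deletion Pax5(DOP,HD/DOP,HD) was close to the homeodomain deletion for 3 of these genes. Irf8 was at 147 and 139 TPM, Irf4 at 96.6 and 95.8 TPM and Bach2 at 50.7 and 45.8 TPM. Spib, at 420.2 and 460.0 TPM, lay between Pax5(DHD/DHD) and Pax5(+/+) without overlapping either. A test of whether the 2 deletions acted additively on the log scale called 0 of 8 genes with limma, edgeR and DESeq2 alike (0.00769% of all genes with limma), and 2 genes had an unadjusted p below 0.05. The largest departure was that of Irf8, at -0.41 (95% confidence interval -0.71 to -0.10, adjusted p = 0.714).

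Ebf1, Foxo1 and Pou2af1, the specification factors and the octamer co-activator, showed little movement with the central deletions. Ebf1 ranged from 257 to 299.8 TPM over the 6 mutant libraries and was at 255 and 333 TPM in Pax5(+/+). Foxo1 ranged from 167 to 175 TPM in the mutants, beside 152 and 173 TPM. Pou2af1 ranged from 757 to 847 TPM, beside 752 and 900 TPM, so that for these 3 genes every mutant group overlapped the range of its control. Pax5 itself was at 433 to 507 TPM in the 6 mutant libraries and at 342 and 360 TPM in Pax5(+/+), a difference of 0.38 to 0.42 on the log2 scale that was not called in any of the 3 genotypes (adjusted p = 0.125, 0.158 and 0.122).

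**Figure D2:**
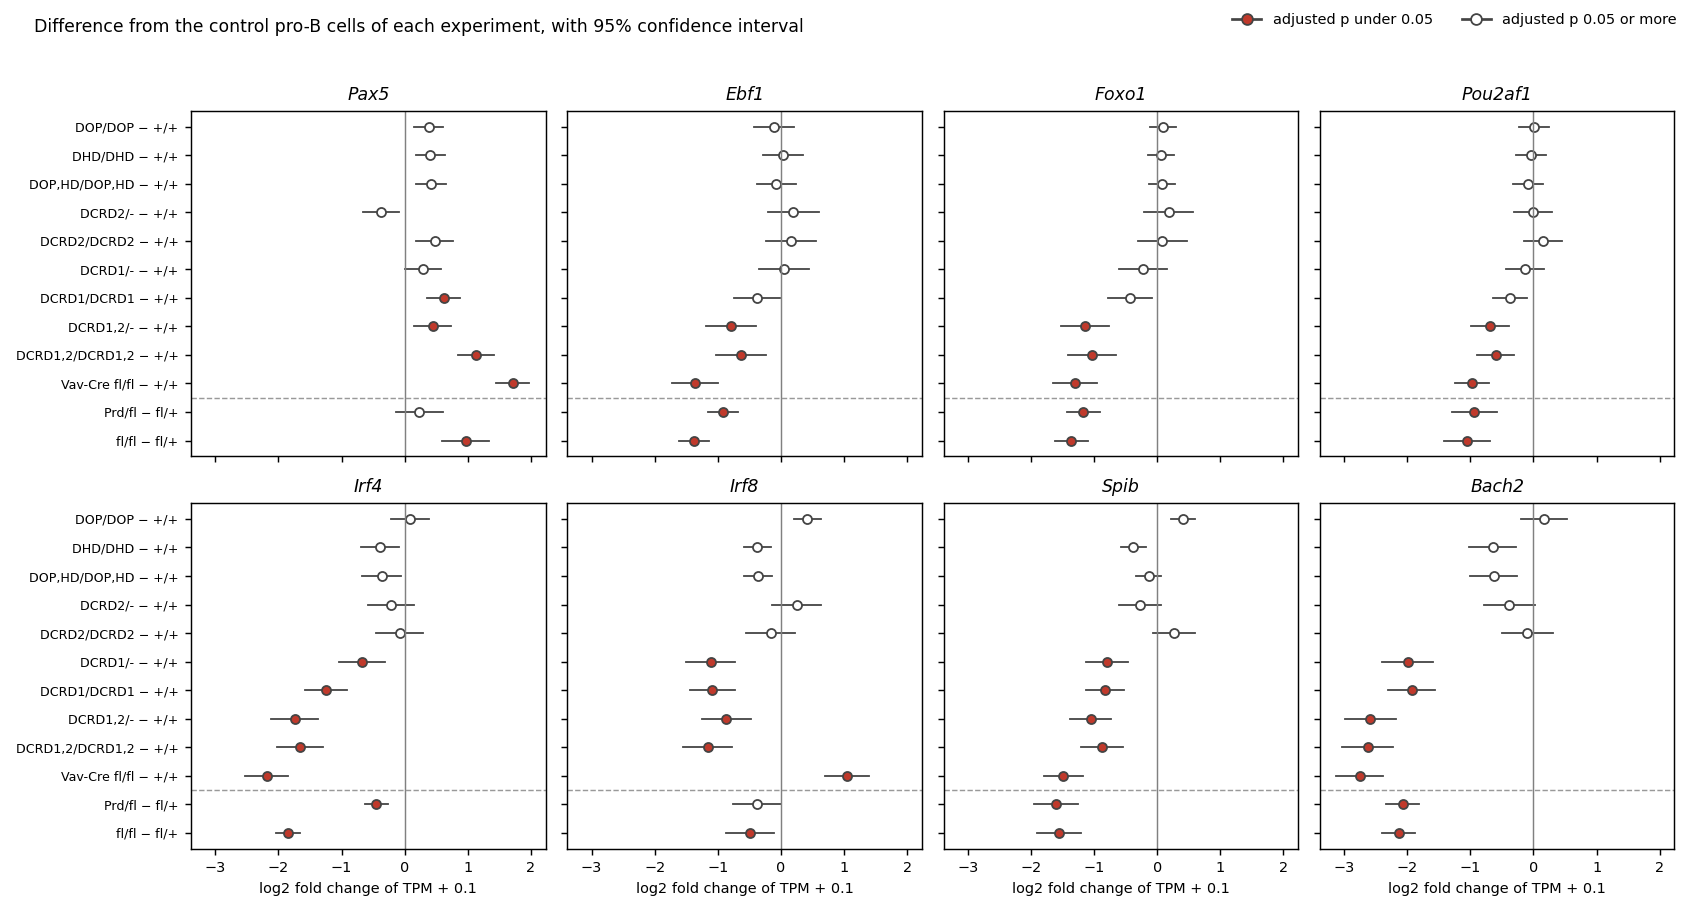
Log2 fold change of each gene against its control, with its 95% confidence interval, by genotype. Filled red points passed an adjusted p of 0.05, the groups above the dashed line are set against Pax5(+/+) and those below it against Vav-Cre Pax5(fl/+). For Bach2 the estimates run from 0.17 without the octapeptide to -2.76 in Vav-Cre Pax5(fl/fl) progenitors, while Irf8 changes sign, from -1.16 in Pax5(DCRD1,2/DCRD1,2) to 1.05 in Vav-Cre Pax5(fl/fl).

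The C-terminal alleles were compared to ask what each part of the C-terminal regulatory domain contributes. All comparisons of this series of alleles share the Pax5(+/+) libraries. Deletion of CRD2 left all 8 genes without a call, in Pax5(DCRD2/-) with 0.967% and in Pax5(DCRD2/DCRD2) with 0.115% of all genes called. In each genotype 1 of 8 genes, Pax5 itself, had an unadjusted p below 0.05, and edgeR and DESeq2 called 0. The directions were opposite, with Pax5 lower in Pax5(DCRD2/-) (241 and 304 TPM) and higher in Pax5(DCRD2/DCRD2) (512 and 464 TPM). It was at 342 and 360 TPM in the 100-nucleotide Pax5(+/+) libraries. Bach2 was at 47.9 and 68.5 TPM in Pax5(DCRD2/-) and at 79.8 and 60.8 TPM in Pax5(DCRD2/DCRD2), beside 68.2 and 81.5 TPM in Pax5(+/+). Its log2 differences were -0.38 (95% confidence interval -0.79 to 0.03) and -0.10 (-0.51 to 0.31).

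Deletion of CRD1 lowered the IRF, Ets and BTB factors and left the specification factors without a call. In Pax5(DCRD1/-) pro-B cells 4 of 8 genes fell (Bach2, Irf8, Spib and Irf4), where 5.88% of all genes were called lower and 10.9% in either direction. The median log2 fold change was -0.45 over the 8 genes and 0.02 over all genes. Bach2 was at 18.1 and 19.2 TPM and was 3.98-fold lower (log2 fold change -1.99, SE 0.19, adjusted p = 1.03e-05). Both libraries lay below every Pax5(+/+) library, of which the 100-nucleotide ones were at 68.2 and 81.5 TPM. Irf8 was at 84.8 and 85.1 TPM, against 192 and 176 TPM in those 2 libraries, and fell by 1.11 on the log2 scale (SE 0.18, adjusted p = 0.000959). Spib was at 286 and 273 TPM, against 496 and 472 TPM, and fell by 0.79 (SE 0.155, adjusted p = 0.00401). The calls of these 3 genes held under every alternative tried. Irf4 was at 79.9 and 75.2 TPM, against 112 and 137 TPM, and fell by 0.68 (SE 0.171, adjusted p = 0.0202), although this call ended without Pax5(+/+) replicate 4 or without either mutant library (adjusted p up to 0.126). The pro-B marker sum was 17700 to 18510 TPM in these cells and 13910 to 18030 TPM in Pax5(+/+). Irf8 and Spib are also expressed in plasmacytoid dendritic cells, whose 9 markers summed to 143.2 to 143.3 TPM, against 159.1 to 248.9 TPM, with 2 markers called lower, 1 higher and Klk1 at 0. Their part in the lower levels was not tested.

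The homozygous Pax5(DCRD1/DCRD1) libraries, which had 50-nucleotide reads, changed for Bach2, Irf4, Irf8, Spib and Pax5, 5 of 8 genes in all, where 7.75% of all genes were called. Bach2 was at 40.3 and 46.7 TPM, against 145 to 198 TPM in the 3 Pax5(+/+) libraries of this read length, and fell by 1.93 on the log2 scale (SE 0.173, adjusted p = 1.04e-05). Irf4 was at 70.4 and 76.9 TPM, against 140.3 to 220.0 TPM, and fell by 1.25 (SE 0.156, adjusted p = 0.000187). Irf8 (101 and 112 TPM) and Spib (406 and 393 TPM) were again below all Pax5(+/+) libraries, with adjusted p = 0.000865 and 0.00214. Of the 9 plasmacytoid dendritic cell markers 4 were called lower and none higher in these cells (sum 173.5 to 214.5 TPM, with Klk1 and Cd300c at 0), and their part in the difference was not tested. Without the read length term, or with the 50-nucleotide libraries alone, Spib was no longer called (adjusted p up to 0.0621). Pax5 RNA was at 746 and 798 TPM, against 489 to 524 TPM, and rose by 0.62 (SE 0.122, adjusted p = 0.00613), a call that ended without Pax5(DCRD1/DCRD1) replicate 2 (adjusted p = 0.0851). For Ebf1, Foxo1 and Pou2af1 the differences from Pax5(+/+) were not called in either CRD1 genotype. In Pax5(DCRD1/-) they were 0.05 (95% confidence interval -0.34 to 0.45), -0.23 (-0.61 to 0.16) and -0.13 (-0.43 to 0.17). In Pax5(DCRD1/DCRD1) they were -0.37 (-0.74 to -0.01), -0.43 (-0.78 to -0.08) and -0.37 (-0.65 to -0.10), with adjusted p from 0.103 to 0.231.

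With both C-terminal segments deleted, all 8 genes changed, and Pax5 alone was higher. In Pax5(DCRD1,2/-) cells 23.5% of all genes were called, 14.2% lower and 9.3% higher. The median log2 fold change was -0.96 over the 8 genes and -0.04 over all genes. Bach2 was at 12.3 and 12.4 TPM and was 6.00-fold lower (log2 fold change -2.58, SE 0.189, adjusted p = 4.18e-07). Irf4 was at 36.3 and 37.6 TPM and was 3.35-fold lower (-1.75, SE 0.171, adjusted p = 6.3e-06). These are the only members past the study's own limits of over 3-fold and above 5 TPM, which 4.4% of all genes passed. Foxo1, at 61.1 and 88.3 TPM beside 152 and 173 TPM, fell by 1.14 (SE 0.178, adjusted p = 0.000349). Ebf1, at 159.5 and 178 TPM beside 255 and 333 TPM, fell by 0.79 (SE 0.185, adjusted p = 0.00648), and this call ended without Pax5(+/+) replicate 4 or Pax5(DCRD1,2/-) replicate 1 (adjusted p up to 0.0724). Pou2af1, at 456 and 569.5 TPM beside 752 and 900 TPM, fell by 0.69 (SE 0.14, adjusted p = 0.00257). The specification factors and the co-activator, which had not been called with either single deletion, were thus called lower here.

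Spib (227 and 238 TPM) and Irf8 (102 and 99.5 TPM) were also lower than in Pax5(+/+), at -1.06 and -0.87 on the log2 scale (adjusted p = 0.000205 and 0.00302). Pax5 RNA was at 416 and 546 TPM, beside 342 and 360 TPM, and was called higher (0.44, SE 0.134, adjusted p = 0.0276). That call was lost without Pax5(+/+) replicate 3 or 4, without Pax5(DCRD1,2/-) replicate 2 (adjusted p up to 0.229), in the 100-nucleotide libraries alone and without the read length term (adjusted p up to 0.576). In the homozygous Pax5(DCRD1,2/DCRD1,2) cells 8 of 8 genes changed in the same directions, with 24.1% of all genes called. Pax5 was at 770 and 761 TPM, 2.18-fold higher than in Pax5(+/+) (SE 0.134 on the log2 scale, adjusted p = 3.9e-05). Bach2 was at 11.6 and 12.3 TPM (6.19-fold lower, adjusted p = 3.81e-07) and Irf4 at 43.3 and 35.5 TPM (3.16-fold lower, adjusted p = 1.08e-05). The calls of Ebf1 (-0.64, adjusted p = 0.0222) and Pou2af1 (-0.60, adjusted p = 0.00634) in these cells ended without Pax5(+/+) replicate 4 or Pax5(DCRD1,2/DCRD1,2) replicate 2, and that of Ebf1 also without Pax5(DCRD1,2/DCRD1,2) replicate 1 (adjusted p up to 0.163 and 0.0819). The pro-B marker sum was 15490 to 15960 TPM in the 4 libraries with both segments deleted. The T-lineage stage markers summed to 928.2 to 1025 TPM in them, against 309.8 to 370.5 TPM in Pax5(+/+), with 5 of 11 tested markers called higher and 1 lower in each genotype and Cd3e at 0 in Pax5(DCRD1,2/-). Of 5 tested erythroid markers, 5 were lower in Pax5(DCRD1,2/-) and 3 in Pax5(DCRD1,2/DCRD1,2). Il2ra, Flt3 and Ly6a of the T-lineage list are named by the paper as repressed by Pax5, so the T-lineage sum does not mark T-lineage cells alone. The part of other cell types in the changes was not tested.

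The step from the CRD1 deletion to the double deletion was tested directly. Between Pax5(DCRD1,2/-) and Pax5(DCRD1/-), both with 100-nucleotide reads, 4 of 8 genes were lower in the double deletion, where 2.56% of all genes were called lower and 3.57% in either direction. Irf4 fell by 1.07 (SE 0.171, adjusted p = 0.00294), Foxo1 by 0.92 (SE 0.178, adjusted p = 0.011), Ebf1 by 0.85 (SE 0.185, adjusted p = 0.0217) and Pou2af1 by 0.56 (SE 0.14, adjusted p = 0.0409). Foxo1, for example, was at 61.1 and 88.3 TPM in the double deletion against 136 and 142 TPM in the CRD1 deletion. Irf8, by contrast, was at 102 and 99.5 TPM against 84.8 and 85.1 TPM, a difference of 0.25 (95% confidence interval -0.14 to 0.63), and Spib differed by -0.27 (-0.60 to 0.07). Bach2 was lower in the double deletion in both libraries without passing the test (-0.59, 95% confidence interval -0.999 to -0.186, adjusted p = 0.115). The Irf4 call held under every alternative tried. The Foxo1 and Ebf1 calls ended without Pax5(DCRD1/-) replicate 1 or 2 or Pax5(DCRD1,2/-) replicate 1 (adjusted p up to 0.144 and 0.181), and Pou2af1 lost its call under 14 alternatives, edgeR among them (adjusted p up to 0.34).

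Whether the 2 segments added up on the log scale was asked with an interaction term. Its baseline was Pax5(+/+), so with the hemizygous alleles each single effect includes the loss of a Pax5 copy. The CRD1,2-deleted cells also came through another gate. Copy number, gate and deletion therefore cannot be told apart in the hemizygous term, nor gate and deletion in the homozygous one. With the hemizygous alleles 1 of 8 genes was called, where 2.09% of all genes were. This was Foxo1, whose level in the double deletion lay 1.10 log2 units below the sum of the single effects, that is an interaction of -1.10 (SE 0.252, adjusted p = 0.0403). Ebf1 (-1.04, adjusted p = 0.0591) and Irf4 (-0.85, adjusted p = 0.0958) pointed the same way without a call, whereas Irf8 and Spib were at 0.00. The Foxo1 call was lost under 17 of 29 alternatives, including the removal of Pax5(+/+) replicate 1, 3 or 4, of Pax5(DCRD1,2/-) replicate 1 or of any library with a single C-terminal deletion or with the homozygous double deletion, with adjusted p from 0.00307 to 0.278 over all alternatives. With the homozygous alleles limma and edgeR called 0 of 8 genes and DESeq2 called 1, with 3.04% of all genes called by limma and 2 genes at an unadjusted p below 0.05. The Foxo1 term was -0.68 (adjusted p = 0.152). Among the homozygous cells, the direct step from Pax5(DCRD1/DCRD1) to Pax5(DCRD1,2/DCRD1,2) crosses the 2 read lengths and gave 0 calls with limma, edgeR and DESeq2 (1.56% of all genes with limma, and 3 genes at an unadjusted p below 0.05). Without the read length term Bach2, Ebf1, Foxo1, Irf4 and Pou2af1 were called there.

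Homozygous and hemizygous cells with the same deletion were compared to ask what the second mutant allele adds. For CRD2, Pax5 RNA was at 512 and 464 TPM in the homozygous and 241 and 304 TPM in the hemizygous cells, 1.80-fold higher with 2 alleles (log2 fold change 0.85, SE 0.134, adjusted p = 0.0155), and limma and edgeR called no other gene of the 8 (0.224% of all genes with limma), while DESeq2 also called Spib. This call ended without Pax5(DCRD2/DCRD2) replicate 1 or Pax5(DCRD2/-) replicate 1 (adjusted p up to 0.136). For CRD1,2 the Pax5 difference was 0.68 (95% confidence interval 0.39 to 0.97, adjusted p = 0.0852). For CRD1 and for CRD1,2, limma called 0 of 8 genes, with 0.0289% and 0.159% of all genes called. In each, 1 gene had an unadjusted p below 0.05, edgeR called 0, and DESeq2 called 0 and 1. The CRD1 comparison sets 50-nucleotide homozygous against 100-nucleotide hemizygous libraries and rests on the read length term. Bach2, for example, was at 40.3 and 46.7 TPM against 18.1 and 19.2 TPM there.

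In Vav-Cre Pax5(fl/fl) progenitors, which make no Pax5 protein, all 8 genes differed from Pax5(+/+) pro-B cells, with 34.9% of all genes called. These libraries had 50-nucleotide reads and are set beside Pax5(+/+) replicates 1, 2 and 5. Bach2 was at 25.8 and 23.1 TPM, against 145 to 198 TPM, and fell by 2.76 on the log2 scale (SE 0.173, adjusted p = 3.3e-08). Irf4 was at 40.3 and 36.5 TPM, against 140.3 to 220.0 TPM, and fell by 2.19 (SE 0.156, adjusted p = 1.07e-07). Spib (206 and 312 TPM, against 629 to 758 TPM) fell by 1.49. Ebf1 was at 184 and 204 TPM, against 386 to 594 TPM, and Foxo1 at 80.7 and 109 TPM, against 198 to 261 TPM. They fell by 1.36 and 1.30, with Pou2af1 at -0.98. Pax5 RNA, at 1609 and 1697 TPM against 489 to 524 TPM, was 3.28-fold higher (SE 0.122 on the log2 scale, adjusted p = 1.07e-07). This value is summed over the gene and can count transcripts of the deleted alleles, which was not tested.

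Irf8 was the gene whose direction differed. It was at 357 and 608 TPM in these progenitors, above all 5 Pax5(+/+) libraries (176 to 237 TPM), and was 2.07-fold higher (log2 fold change 1.05, SE 0.164, adjusted p = 0.000183). Against Pax5(DCRD1,2/-) cells, which came through the same gate but had 100-nucleotide reads, it was 3.77-fold higher (log2 fold change 1.915, SE 0.243, adjusted p = 0.000754), and the log2 fold change was 2.21 without the read length term. In that comparison 2 of 8 genes, Irf8 and Pax5, were called higher and none lower, with 3.65% of all genes called. Irf8 is itself expressed by plasmacytoid dendritic cells and their precursors. The summed level of 9 markers of these cells was 777 TPM in replicate 1 and 1226 TPM in replicate 2, the library with more Irf8, against 159.1 to 248.9 TPM in Pax5(+/+) and 269.6 to 297.1 TPM in Pax5(DCRD1,2/-). None of the 9 was at 0 in both progenitor libraries, and 7 of 9 were called higher than in Pax5(+/+). Siglech, a surface receptor of plasmacytoid dendritic cells, was at 70.6 to 195 TPM, against 0.551 to 13.9 TPM in Pax5(+/+). Their part in the Irf8 difference was not tested.

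The experiment on the paired domain asked how much of Pax5 function its DNA-binding part keeps. Without Pax5, 7 genes had the same direction as in the first experiments, and Irf8 had the opposite one. In Vav-Cre Pax5(fl/fl) progenitors against Vav-Cre Pax5(fl/+) pro-B cells 8 of 8 genes were called, 7 lower (19.1% of all genes) and Pax5 higher, with 39.9% of all genes called. Bach2 was at 18.5 and 21.9 TPM against 88.8 and 89.5 TPM, and fell by 2.14 on the log2 scale (SE 0.108, adjusted p = 5.01e-05). Irf4 was at 24.3 and 25.4 TPM against 91.02 and 88.4 TPM, and fell by 1.85 (SE 0.0785, adjusted p = 3.31e-05). Irf8 was at 207 and 162 TPM against 266 and 248 TPM, a lower level here (-0.49, adjusted p = 0.0486), and this call was lost under 10 of 15 alternatives, among them edgeR and the removal of any fl/+ or fl/fl library (adjusted p up to 0.243). The plasmacytoid dendritic cell marker sum was 402.7 to 518.3 TPM in these progenitors and 181.4 to 183.9 TPM in the fl/+ cells, with 7 of 8 tested markers called higher and none of the 9 at 0. Markers of other lineages were higher as well. Of 12 tested granulocyte and macrophage markers 9 were called higher (472.6 to 856.1 TPM in sum, against 177.6 to 240.3 TPM). Of 11 tested T-lineage stage markers 8 were called higher and 1 lower (1092 to 1166 TPM, against 328.8 to 333.3 TPM). Il2ra, Flt3 and Ly6a of the T-lineage list are named by the paper as repressed by Pax5, so that sum does not mark T-lineage cells alone. The part of other cell types in the changes of the 8 genes was not tested. The fl/+ control is a pro-B population and the other groups are progenitors from another gate, so cell type and genotype cannot be told apart in these comparisons.

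With the paired domain alone, 6 of 8 genes stayed below Vav-Cre Pax5(fl/+), where 16.6% of all genes were called lower and 40.7% in either direction. Bach2 was at 20.6 and 21.6 TPM (-2.07, SE 0.108, adjusted p = 5.23e-05), and Spib at 132 and 178 TPM against 479.9 and 457 TPM (-1.61, SE 0.146, adjusted p = 0.00038). Foxo1 (83.2 and 97.6 TPM), Pou2af1 (525.5 and 644 TPM) and Ebf1 (202 and 178.5 TPM) were 2.25-fold, 1.91-fold and 1.89-fold below the control.

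Against Pax5-deleted progenitors from the same gate, limma called a single gene of the 8 in the cells with the paired domain, where 1.97% of all genes were called and 1.17% higher. Irf4 was at 66.8 and 64.7 TPM with the paired domain, against 24.3 and 25.4 TPM without Pax5, with no overlap, and was 2.64-fold higher (log2 fold change 1.399, SE 0.0785, adjusted p = 0.00206). It remained below the fl/+ pro-B cells, at 91.02 and 88.4 TPM (-0.45, adjusted p = 0.00528). The first of these calls ended without Vav-Cre Pax5(fl/+) replicate 2 or without either Vav-Cre Pax5(fl/fl) library (adjusted p up to 0.0918, with log2 fold changes between 1.33 and 1.43 over all alternatives), and the second without either fl/+ library (up to 0.0666). Ebf1 was higher in both Prd libraries, at 202 and 178.5 TPM against 129 and 148 TPM, but the difference of 0.46 was not called by limma (95% confidence interval 0.22 to 0.70, adjusted p = 0.0853) or edgeR, while DESeq2 called it. Pax5 RNA, at 620.2 and 852 TPM against 1129 and 1301 TPM, was called lower by edgeR and DESeq2 but not by limma (-0.74, adjusted p = 0.0761). Bach2 differed by 0.06 (-0.19 to 0.32), Foxo1 by 0.19 and Spib by -0.06. The plasmacytoid dendritic cell marker sum, at 406.9 to 464 TPM with the paired domain, overlapped that of the Pax5-deleted progenitors.

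The other regulators of the B lineage were counted from a list of 22 tested genes (Ikzf3, Id3, Lef1, Tcf3 and others), and the early B cell genes from a list of 19, both drawn up with earlier results of these data known. In Pax5(DCRD1/-), 4 regulators fell and 2 rose, led by Ikzf3 (the lymphoid zinc finger factor Aiolos, -3.86), Id3 (an inhibitor of E proteins, -2.15), Lef1 (a factor of the Wnt pathway, -1.12) and Tcf3 (the E protein E2A, -1.09) on the log2 scale, where 10.9% of all genes were called. In Pax5(DCRD1,2/-), 11 fell and 2 rose (23.5% of all genes), with Ikzf3 at -4.12, Id3 at -3.68 and Lef1 at -2.57. In Vav-Cre Pax5(fl/fl) progenitors 10 fell and 3 rose (34.9% of all genes), with Lef1 at -5.60 and Id2, another inhibitor of E proteins, at 2.399. Neither CRD2 genotype gave a call on this list. Among the early B cell genes 5 fell and 1 rose in Pax5(DCRD1/-), with Fcrla at -4.14, Cd72 at -1.36 and Il7r at 1.72. Il7r was also called higher in Pax5(DCRD2/-) (1.36), as the only early B cell gene called in either CRD2 genotype. In Pax5(DCRD1,2/-) 10 fell and 1 rose (Fcrla -5.63), and in Vav-Cre Pax5(fl/fl) progenitors 13 fell and 3 rose (Fcrla -4.24, and Cd79a, the B cell receptor signalling chain, -2.85). With the paired domain alone, 4 of the 19 were higher than without Pax5 and none lower, namely Vpreb3 (1.54), Cd79a (1.48), Bst1 (0.78) and Vpreb1 (0.46), whereas of the regulators Id3 alone was called, lower (-1.54), where 1.97% of all genes were called.

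Across the 18 bone marrow pro-B libraries with 100-nucleotide reads, which cover 9 genotypes, the 7 regulators other than Pax5 went up and down together. Pearson's r of their log2 levels ran from 0.52 (Ebf1 with Irf8) to 0.95 (Foxo1 with Pou2af1, Pou2af1 with Irf4, and Irf4 with Bach2). Pax5 ran against all of them, from -0.31 with Spib to -0.61 with Irf8. The libraries share genotypes in pairs and the values describe these samples, with no test. Among them are the libraries with the CRD1,2 deletion, which came through another gate and in which all 7 regulators were lower than in Pax5(+/+). Their part in the r values was not tested. The spread of r between other genes is not given, so the values are not shown to be particular to these regulators. Over the 10952 genes compared, the levels most like those of Bach2 were those of Gfra1, Neil1 and Gpam (r of 0.99 each), and those most like Irf4 were Plekha2 (0.99), Cat (0.99) and Cdc25b (0.98). Foxo1 was most like Ets1, Rassf3 and Lrch1 (0.98 each), Ebf1 like Slain2 (0.97), Pou2af1 like Cd81 (0.96), Spib like Mybpc2 (0.97) and Irf8 like Fmnl3 (0.97). For Pax5 the closest gene was Orai2 at 0.84.

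**Figure D3:**
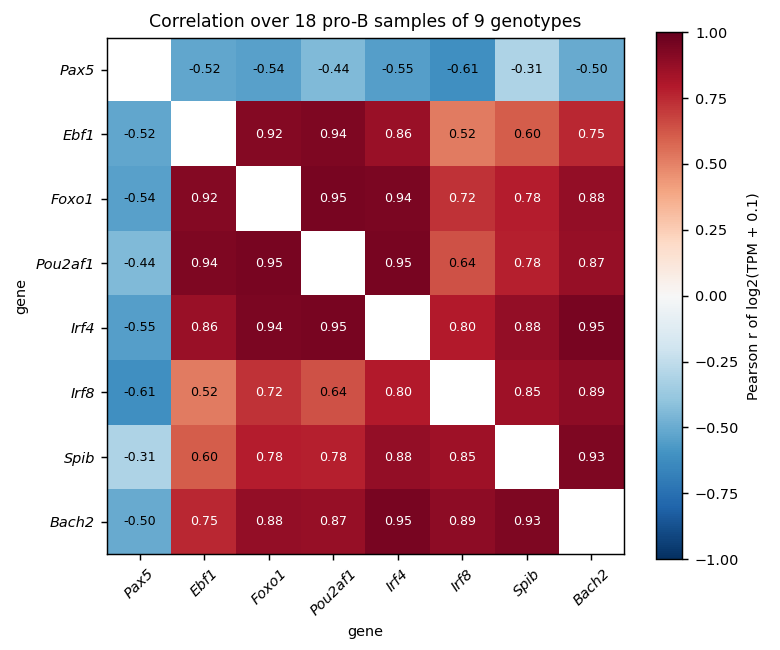
Pearson's r between the log2 levels of the 8 genes over 18 pro-B libraries of 100-nucleotide reads from 9 genotypes, as colours from blue (negative) to red (positive). The block of the 7 regulators other than Pax5 is positive throughout, with 0.52 as the lowest value, and the Pax5 row and column are negative throughout.

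The early lymphoid and thymocyte samples show these genes outside the B lineage. Lymphoid-primed multipotent progenitors (LMPP) give rise to B and T cells, and thymocytes then pass from the DN1 stage through DN2a and DN2b, where T cell commitment takes place, to DN3a and DN3b, the stages around selection for a rearranged T cell receptor β chain. DN3a cells of Rag2(-/-) mice were included. Each file lists every gene with a pair of values that differ by a median ratio of 1.16 to 1.25, and the mean of the pair was used, so these levels are not set beside those of the bone marrow files. The gate markers followed the stages, with Flt3 at 680 to 697 TPM in LMPP and 170.2 to 188 TPM in DN1, Kit at 288.5 to 336 TPM in DN1 and 83.7 to 98.99 TPM in DN2b, and Il2ra (CD25) at 23.1 to 43.4 TPM in DN1 and 528 to 738 TPM in DN2a. Cd3e was at 2181 to 2219 TPM in DN3a and 866 to 874 TPM in DN3b. Pax5 stayed at or below 0.812 TPM and Ebf1 at or below 0.335 TPM in all 17 samples, too low to be tested. The other 6 genes were above 1 TPM in at least 1 sample and were tested between successive stages, which share samples with their neighbours.

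**Figure D4:**
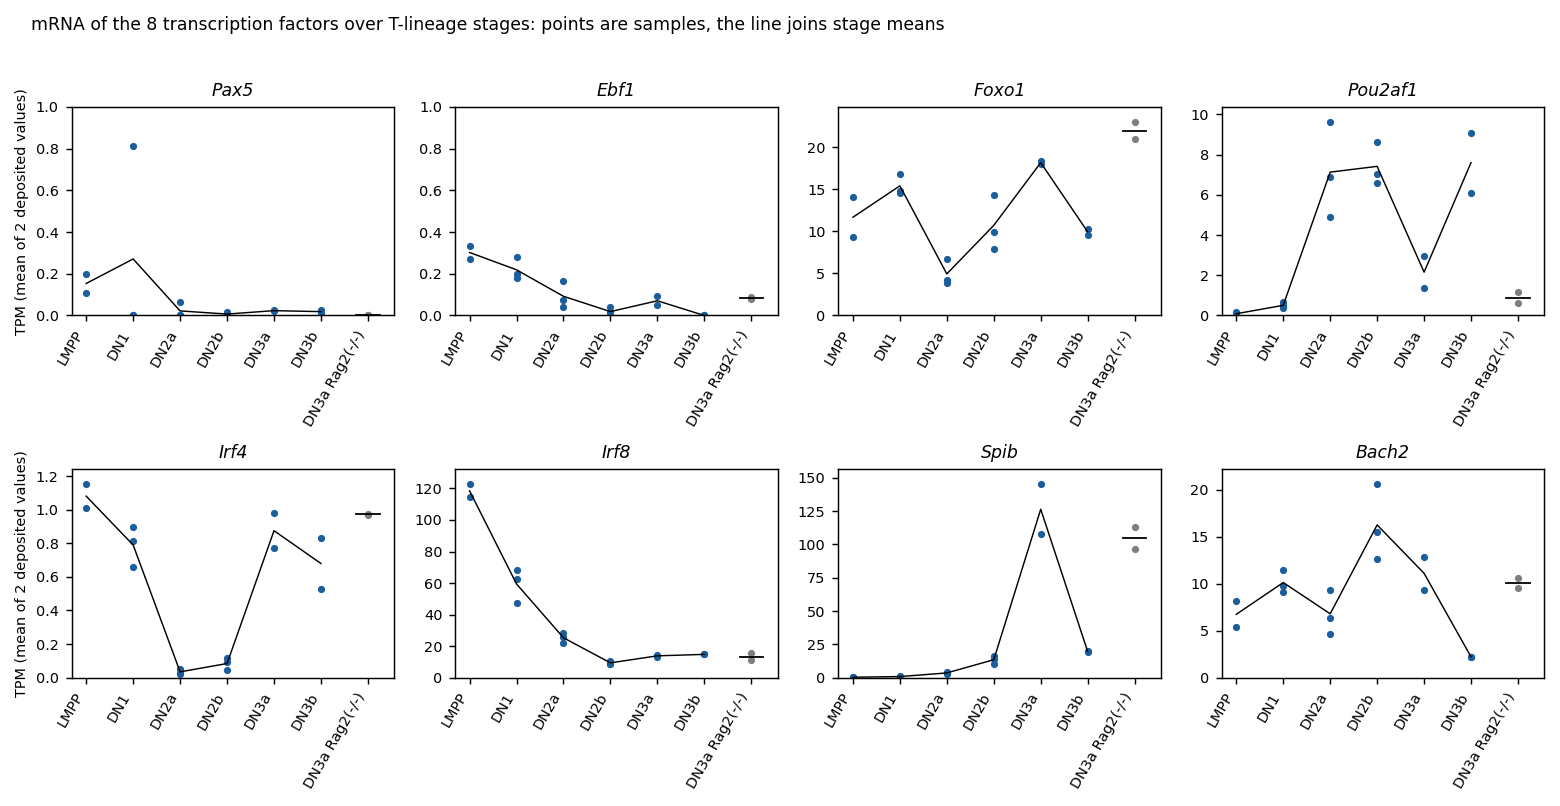
Level (TPM, mean of the pair of deposited values) of the 8 genes in LMPP and the DN stages of the thymus, 1 point a sample, with Rag2(-/-) DN3a in grey. Spib climbs to 108 and 145 TPM in DN3a and reads 19.8 and 19.6 TPM in DN3b, Irf8 falls from 114 and 123 TPM in LMPP to 8.51 to 10.8 TPM in DN2b, and Pax5 and Ebf1 stay below 1 TPM.

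Spib showed the widest range of the 6. It was at 0.293 and 0.395 TPM in LMPP, 0.601 to 1.14 TPM in DN1, 2.61 to 4.28 TPM in DN2a, 10.6 to 15.9 TPM in DN2b and 108 and 145 TPM in DN3a, with no overlap between successive stages. The step from DN2b to DN3a was 9.35-fold (log2 fold change 3.22, SE 0.271, adjusted p = 1.04e-06), in a comparison where 45.8% of all genes were called. In DN3b it was at 19.8 and 19.6 TPM, 6.33-fold lower than in DN3a (SE 0.296 on the log2 scale, adjusted p = 6.05e-06). The rise from LMPP to DN1 (1.02, adjusted p = 0.0166) rested on values near 1 TPM. It was lost with a pseudocount of 1 and without LMPP replicate 1 or a DN1 sample of replicate number 2 (adjusted p up to 0.182).

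Irf8 moved the other way in the early stages. It was at 114 and 123 TPM in LMPP, 47.4 to 68.1 TPM in DN1, 22.0 to 28.3 TPM in DN2a and 8.51 to 10.8 TPM in DN2b, again without overlap. The 3 steps were -1.01, -1.22 and -1.42 on the log2 scale (adjusted p = 0.00111, 8.71e-05 and 2.93e-05). The granulocyte and macrophage markers summed to 2553 to 2673, 1973 to 2242, 536 to 555.8 and 62.36 to 83.37 TPM in these stages. Of 12 tested markers, 5, 7 and 5 were called lower at the 3 steps and 2 higher at the first. Ngp was at 0 in DN1, S100a8 and Ngp in DN2a, and S100a8, S100a9 and Ngp in DN2b. The part of such cells in the Irf8 levels was not tested. In DN3a it was at 13.4 and 14.3 TPM and in DN3b at 14.8 and 14.7 TPM. Irf4 was low throughout, at most 1.15 TPM. It was at 0.661 to 0.894 TPM in DN1, 0.0244 to 0.0541 TPM in DN2a, 0.0463 to 0.116 TPM in DN2b and 0.770 and 0.980 TPM in DN3a. Irf4 passed the filter of 1 TPM through LMPP alone, and its log2 differences of -2.72 into DN2a and 2.41 into DN3a, both counted among the calls of those steps, rest on values below 1 TPM.

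Bach2 and Foxo1 were present in every stage. Bach2 was at 9.15 to 11.4 TPM in DN1, 4.66 to 9.38 TPM in DN2a, 12.7 to 20.6 TPM in DN2b, 12.9 and 9.36 TPM in DN3a and 2.21 and 2.22 TPM in DN3b. It rose into DN2b (1.27, SE 0.252, adjusted p = 0.00258) and was 4.78-fold lower in DN3b than in DN3a (SE 0.308 on the log2 scale, adjusted p = 3.68e-05). Its overlap with the antisense gene Bach2os makes the Bach2 values of these files uncertain. Foxo1 was lowest in DN2a, at 3.88 to 6.73 TPM, against 14.6 to 16.9 TPM in DN1 and 7.93 to 14.3 TPM in DN2b, with adjusted p = 0.000143 for the fall and 0.00418 for the rise. Its later changes, to 18.3 and 18.03 TPM in DN3a and 9.63 and 10.3 TPM in DN3b (0.80 and -0.86, adjusted p = 0.0227 and 0.0201), were no longer called once the median of all genes was set to 0, a shift of 0.273 and -0.407. They also ended without either DN3a library and without a DN2b sample of replicate number 2 or either DN3b library (adjusted p up to 0.102 and 0.0883).

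Pou2af1, best known as a B cell co-activator, was at most 0.653 TPM in LMPP and DN1 and 4.88 to 9.61 TPM in DN2a (3.55 on the log2 scale, SE 0.407, adjusted p = 2.36e-05). It was lower in DN3a, at 1.36 and 2.95 TPM (-1.82, adjusted p = 0.00537), than in DN2b (6.57 to 8.64 TPM) or DN3b (9.10 and 6.11 TPM). The 2 changes at DN3a were lost with a pseudocount of 0.01 and without DN3a replicate 1, and the second also without DN3b replicate 1 (adjusted p up to 0.104). Of the 6 genes, 3 were called from LMPP to DN1 (18.6% of all genes), 5 from DN1 to DN2a (33.7%), 4 from DN2a to DN2b (18.2%), 5 from DN2b to DN3a and 4 from DN3a to DN3b (53.4%). Between Rag2(-/-) and wild-type DN3a cells limma called 0 of 6, where 26.4% of all genes were called, and 1 gene, Pou2af1, had an unadjusted p below 0.05 (-1.17, adjusted p = 0.0994).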

How the data were processed

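RNA levels were measured in sorted C57BL/6 cells. For the 31 bone marrow samples the authors aligned reads, trimmed to 50 bases, to GRCm38 with STAR 2.4.2a and counted them per RefSeq gene with Rsubread. They deposited TPM values, and for 2 samples also raw read counts (28928773 and 36972531 reads in total), which are not normalized. For the 17 lymphoid samples, aligned with TopHat 1.4.1 to mm9, the deposited files hold a pair of values per gene, taken as signal because their unit is not named. Entries of exactly 1 were set to 0, since the remaining values then sum to the same total in every sample, and the mean of the pair is written as TPM. Names were missing in 8 files and were taken from files with the same order of genes. The order was checked on all 25579 genes for the 2 DCRD2/DCRD2 files and, for the 6 files of the paired-domain experiment, by the gene lengths implied at 11662 genes. Read lengths (50 or 100 nucleotides) came from the study's sequencing list.

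The 8 genes and all lists were chosen with earlier results of these data known. A gene entered a model if any of its samples was above 1 TPM, and log2(TPM + 0.1) was then tested with limma 3.58.1 (R 4.3.3, two-sided, mean-variance trend, Benjamini-Hochberg over all genes tested, 95% confidence intervals), called at an adjusted p below 0.05. There were 4 models, for the central domains (8 samples, 12996 genes), the C-terminal domains with read length as a term (19 samples, 13854 genes), the paired domain (6 samples, 12941 genes) and the T lineage (17 samples, 13482 genes). Groups followed the labels. Fold changes are on the log2(TPM + 0.1) scale. The study's further limits, over 3-fold and over 5 TPM in 1 group, were applied where stated. Whole reads were recovered from the bone marrow TPM values (100% of those tested were whole within 0.02 reads) and tested with edgeR 4.0.16 and DESeq2 1.42.0 as alternatives. The script was tested on simulated data. Named besides the 8 genes are the 3 with the highest Pearson r to each, at most 4 called genes per list with the largest changes, and markers. Depth was unknown for the lymphoid samples. Columns of the authors' own comparisons were not used. Results for 1 further gene are not reported here.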

Additional observations from a re-analysis of the deposited data

Results flagged for a closer look

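Foxo1 showed a difference between 2 steps that passed its own test. The step from Pax5(DCRD1/-) to Pax5(DCRD1,2/-) differed from the step from Pax5(+/+) to Pax5(DCRD2/-). The interaction was -1.10 on the log2 scale (SE 0.252, adjusted p = 0.0403, limma) and lost its call under 17 of 29 alternatives. The second step includes the loss of a Pax5 copy, and the first crosses the 2 gates. Copy number, gate and the CRD2 deletion therefore cannot be told apart in this term. Foxo1 was at 173 and 195.5 TPM in Pax5(DCRD2/-), 136 and 142 TPM in Pax5(DCRD1/-) and 61.1 and 88.3 TPM in Pax5(DCRD1,2/-).

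Irf8 lay on opposite sides of the control in the 2 sets of Pax5-deleted progenitors. The log2 fold change was 1.05 against Pax5(+/+) in the first experiments and -0.49 against Vav-Cre Pax5(fl/+) in the paired-domain experiment, with both progenitor libraries above every control library in the former and below both in the latter. The difference between the 2 experiments was not tested. Their controls differ, and the labels name an alternative gating for the progenitors of the latter. The plasmacytoid dendritic cell marker sum was 777 to 1226 TPM in the former progenitors and 402.7 to 518.3 TPM in the latter.

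In the 5 Pax5(+/+) libraries none of the 8 genes had a sample whose gap to its neighbour, divided by the range of the group, exceeded Dixon's 95% critical value. The widest gap was that of Irf4, at 0.428 of its range.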

How the results depend on the processing

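Of 220 pairs of a gene and a comparison, 80 were called, 55 of these under every alternative run, and 107 were never called. None reversed its direction with a call. For the central domains 3 of 32 pairs were called, against 6 with edgeR and 14 with DESeq2 on recovered reads. For the C-terminal interactions 1 pair was called, against 0 without a filter, 0 without limma's trend, 0 without the read length term, 2 with edgeR and 5 with DESeq2. Leaving out 1 library at a time gave 0 to 3 calls for the central domains, 35 to 41 for the C-terminal domains (40 with all libraries), 12 to 18 for the paired-domain experiment (15), 16 to 22 for the T lineage (21) and 0 to 3 for the interactions. Without Pax5(+/+) replicate 4, the library with the highest myeloid marker sum of its group, the C-terminal count was 35. Where leaving out a library left a single sample in a group, that sample was assumed to vary like the others.

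Samples with the same replicate number deviated together in only 8 of 28 pairs of groups among the 100-nucleotide libraries (correlation above 0.1), 0 of 3 among the 50-nucleotide ones, 1 of 3 in the paired-domain experiment and 5 of 21 in the T lineage, so the numbers were not taken to pair samples. The correlations ran from -0.492 to 0.277 among the 100-nucleotide libraries and from -0.842 to 0.595 in the T lineage. Any structure shared between samples of unlike numbers was not modelled. With the replicate number as a block, 2 of 8 estimable pairs were called for the central domains, 20 of 40 for the C-terminal domains (18 of the same pairs without the block), 15 of 24 for the paired-domain experiment, 21 of 36 for the T lineage and 0 of 8 for the interactions. The 50-nucleotide libraries alone gave no interaction. With 2 samples in most groups, differences under about 1 log2 unit often stayed uncalled, and thymocyte values near 1 TPM or below carry an unknown counting error.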

Other observations

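The other B-lineage regulators were also called between the stages of T cell development. Of the 22 listed regulators, 7 rose and 1 fell from LMPP to DN1 (18.6% of all genes were called), 0 rose and 15 fell from DN1 to DN2a (33.7%), 5 rose and 5 fell from DN2a to DN2b (18.2%), 10 rose and 3 fell from DN2b to DN3a (45.8%), and 4 rose and 12 fell from DN3a to DN3b (53.4%). Between Rag2(-/-) and wild-type DN3a cells 6 were lower and 0 higher, a share near that of all genes (26.4%). Of the 17 tested early B cell genes, 6 rose and 1 fell, 3 rose and 4 fell, 2 rose and 4 fell, 7 rose and 2 fell, and 0 rose and 14 fell at the same 5 steps, and 1 was higher and 6 lower in Rag2(-/-) DN3a cells.

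Among the central-domain alleles the Ets-family factor Spi1 (PU.1), an activator of myeloid and B cell genes, was called higher than in Pax5(+/+) without the octapeptide (0.80 on the log2 scale, 205 against 118 TPM) and in the double deletion (0.64). The granulocyte and macrophage marker sum was 7072 and 7441 TPM in the Pax5(DOP/DOP) libraries, 712.2 and 6769 TPM in the Pax5(DOP,HD/DOP,HD) libraries, and 939.6 and 6957 TPM in the 2 Pax5(+/+) libraries of that comparison, and its part in the Spi1 difference was not tested. Of the early B cell genes, Fcrla (-1.12) and Cd22 (-1.10) fell in the double deletion, and none was called in either single deletion.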
